A study of Homo sapiens
Mus musculus and Mus musculus and Homo sapiens with 16 samples.

Results

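The genes that load and present peptides on MHC class I molecules were followed in REC-1 cells, an established mantle cell lymphoma (MCL) B cell line, as the cells met bone marrow stroma. The members were the 9 listed symbols HLA-B, HLA-C, HLA-E, HLA-F, B2M, TAP1, TAP2, TAPBP and NLRC5, of 58051 human genes in the count table. Each symbol matched 1 row. Poly(A) RNA was sequenced from monocultured REC-1 cells (Sep), from REC-1 cells that stayed in suspension above a layer of MS-5 cells (Susp) and from REC-1 cells that adhered to that layer (Adh), with 4 libraries in each group. Incubation was for 24 h, and none of the groups carried a drug or a genetic change by the labels. MS-5 is a mouse stromal cell line derived from bone marrow. Adh libraries held RNA of both species, which the authors separated by sequence, so an Adh level is that of the human reads alone. All REC-1 libraries came from 1 cell line, so the data describe that line and not MCL in general. The study describes the libraries of a group as independent experiments, while the labels give only a replicate number.

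MHC class I molecules display peptides from inside the cell to CD8 T cells and to NK cells. A heavy chain (HLA-B, HLA-C and the non-classical HLA-E and HLA-F) pairs with beta-2-microglobulin, the light chain made from B2M. Peptides cut by the proteasome are pumped into the endoplasmic reticulum (ER) by the TAP1 and TAP2 transporter, and tapasin, made from TAPBP, holds the empty heavy chain next to that transporter. NLRC5 is the transactivator of the class I genes, and interferons raise most of them. Loss of class I presentation is a known route by which B cell lymphomas avoid T cells.

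Stretches of 30 bases from the hg38 (GRCh38) genome, taken where elements known from class I promoters were matched upstream of a member or from the like place in another heavy chain, are shown beside the values. Starts are those of the main transcript in GENCODE release 44, all stretches are written 5′ to 3′ on the strand of the gene, and capitals mark a motif match on either strand. The genes and stretches were chosen after their values were seen. For the heavy chains, the first set is the stretch of HLA-B around its NF-kB element and the stretch most like it in each other heavy chain. In HLA-C 28 of the 30 bases were the same as in HLA-B, against 20 in HLA-F and 15 in HLA-E, and the element was matched in HLA-B and HLA-C and not in the other heavy chains. They lie at chr6:31357337-31357366 on the minus strand (HLA-B), chr6:31272246-31272275 on the minus strand (HLA-C), chr6:30489337-30489366 on the plus strand (HLA-E) and chr6:29723245-29723274 on the plus strand (HLA-F).
HLA-B: gcgcagcgttGGGGATTCCCCactcccctg
HLA-C: gcgccgcgttgGGGATTCTCCactcccctg
HLA-E: gggaaactctgcagtttcccgttcctctcg
HLA-F: gctcagtattgagaattccccatctcccca

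The second set runs from the cyclic AMP response element (CRE) core, TGACG, to the CCAAT box. It holds only some of the promoter region in which the class I enhanceosome assembles. Here 29 of 30 bases of HLA-C, 26 of HLA-F and 22 of HLA-E were the same as in HLA-B. The stretches lie at chr6:31357256-31357285 on the minus strand (HLA-B), chr6:31272168-31272197 on the minus strand (HLA-C), chr6:30489402-30489431 on the plus strand (HLA-E) and chr6:29723327-29723356 on the plus strand (HLA-F). The CRE core was matched in HLA-B, HLA-C and HLA-E, and the CCAAT box in each of the 4 heavy chains.
HLA-B: TGACGcgtccccacttcccactcccATTGG
HLA-C: TGACGcgtccCCAATtcccactcccATTGG
HLA-E: TGACGcagactcagttctcattcCCAATgg
HLA-F: taacgcggccccatttctcactcccATTGG

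For the light chain and the loading genes the stretch around the interferon response element (GAAA, any 2 bases and GAAA) is shown. It lies at chr15:44711366-44711395 on the plus strand (B2M), chr6:32853816-32853845 on the minus strand (TAP1), chr6:32838778-32838807 on the minus strand (TAP2) and chr6:33314079-33314108 on the minus strand (TAPBP).
B2M: actctaaGAAAAGGAAACTGAAAacgggaa
TAP1: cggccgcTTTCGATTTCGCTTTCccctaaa
TAP2: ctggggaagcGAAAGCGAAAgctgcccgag
TAPBP: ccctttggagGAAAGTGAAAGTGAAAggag

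In the 250 bases before the start, this element was found in 5 of the 9 members (B2M, HLA-F, TAP1, TAP2 and TAPBP). Of 19629 such windows of protein-coding genes, 2.848% held it. The NF-kB element was found in 5 members (B2M, HLA-B, HLA-C, TAP1 and TAPBP) and in 11.371% of all windows. The CRE core was found in 5 members and 25.559% of windows, and the CCAAT box in 6 members and 34.454% of windows. Neither the interferon element with 1 spacer base (GAAANGAAA, in 2.491% of windows) nor the STAT element (TTCNNNGAA, in 5.66%) was found in any of the 9. No motif of those searched was found in the window of NLRC5. Motifs were searched on both strands, and matches of the interferon element to a repeated run overlap each other, as in B2M, TAP1 and TAPBP. A match describes the letters of the window and not the binding of a factor.

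Total human counts were 7758979 to 21467832 per library. B cell genes were counted in every library, with MS4A1, the gene of CD20, at 991 to 1370 counts per 1000000 human counts (CPM). CD22, the lowest of those looked at, was at 43.3 to 69.0 CPM. Among MCL markers, CCND1, the cyclin of the MCL translocation, was at 1130 to 2130 CPM and SOX11 at 16.1 to 27.1 CPM. CD5, a surface marker usual in MCL, was at 1.35 CPM or less. Of 15 markers of other cell types, 9 were under 1 CPM in all 12 libraries, and the epithelial EPCAM was the highest, at 12.6 to 27.8 CPM. The summed level of the 15 was 19.6 to 23.6 CPM in Sep, 19.9 to 27.4 in Susp and 25.4 to 38.6 in Adh, while the 5 stromal genes among them (COL1A1, COL1A2, COL3A1, DCN and PDGFRB) summed to 0.513 CPM or less in any library. Their part in the results was not tested. Susp replicate 2 stood apart from its group. Its median absolute difference from the other 3 libraries was 0.319 on the log2 CPM scale, against 0.112 to 0.215 for the other 11 libraries, so values without it are given where they matter.

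Levels per length placed the members in an order that spanned much of the range of expressed genes. B2M was at a mean of 323 RPKM, which is CPM per kilobase of exon, over the 12 libraries, above 99.4% of the 12773 tested genes with a length. HLA-C followed at 59.1 RPKM (above 94.9%), TAPBP at 42.4 (92.3%), HLA-B at 5.40 (52.1%), TAP1 at 5.33 (51.8%), TAP2 at 2.68 (37.0%) and NLRC5 at 1.38 (26.1%). HLA-E, at 0.176 RPKM, and HLA-F, at 0.0232 RPKM, were at the bottom. Between most neighbours in this order the ranges over the 12 libraries did not overlap. The exceptions were HLA-C and TAPBP, whose ranges overlapped although HLA-C was higher in each of the 12 libraries, HLA-B and TAP1, where HLA-B was higher in 3 of 12 libraries, and HLA-E and HLA-F, where HLA-E was higher in 11 of 12. RPKM used the union of annotated exons. With the length of the longest transcript the order was kept apart from HLA-B and TAP1, where HLA-B was higher in 1 of 12 libraries.

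**Figure D1:**
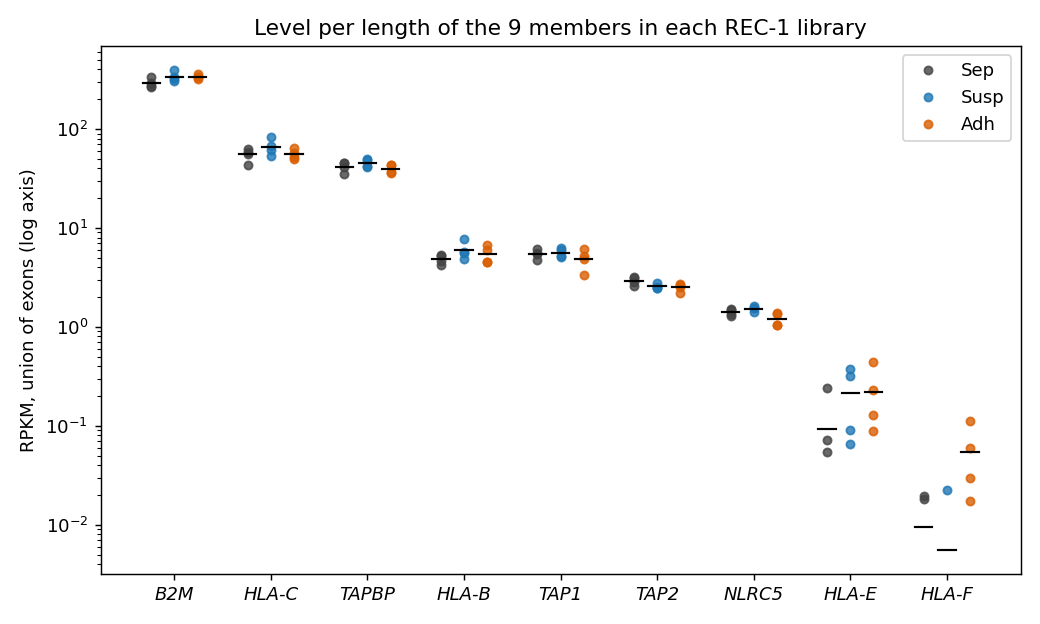
Level per length of the 9 members in each REC-1 library, in RPKM over the union of exons on a log axis. Points are libraries, bars are group means (n = 4), and libraries at 0 are not drawn. B2M lies near 323 RPKM and HLA-F near 0.0232 RPKM, and the 3 groups lie close together for each gene from B2M to NLRC5.

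The heavy chains differed widely among themselves. HLA-C (ENSG00000204525, chr6:31268749-31272130, minus strand) was at 109, 145, 142 and 158 CPM in the Sep libraries, 133, 208, 169 and 155 CPM in Susp and 124, 144, 131 and 160 CPM in Adh. The groups overlapped, and Susp replicate 2 was the highest of the 12. HLA-B (ENSG00000234745, chr6:31353872-31367067, minus strand) was at 21.2, 19.5, 24.1 and 24.4 CPM in Sep, 22.6, 35.4, 26.2 and 25.7 CPM in Susp and 21.1, 20.8, 31.1 and 27.5 CPM in Adh. Again Susp replicate 2 was the highest and the groups overlapped. Per length, HLA-C was 11.5 ± 1.79 times HLA-B in Sep, 11.2 ± 0.52 times in Susp and 10.5 ± 2.09 times in Adh (SD, n = 4). These ratios depend on the lengths used, 2507 bases for HLA-C and 4623 for HLA-B, which come from a later annotation than the counts.

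HLA-E (ENSG00000204592, chr6:30489509-30494194, plus strand), whose product presents signal peptides of other heavy chains to NK cell receptors, was barely counted. Its libraries held 9, 0, 2 and 2 reads in Sep, 4, 18, 4 and 14 in Susp and 5, 7, 10 and 2 in Adh. HLA-F (ENSG00000204642, chr6:29722775-29738528, plus strand) had 1, 1, 0 and 0 reads in Sep, 0, 0, 2 and 0 in Susp and 1, 5, 2 and 1 in Adh. The groups overlapped for HLA-E and for HLA-F, both genes failed the low-count filter, and no fold is given for them. A count of 0 allows up to 3 counts, which is 0.145 to 0.385 CPM in these libraries and covers counting error only. The nearest tested gene to the right of HLA-E, GNL1, was at 52.8 to 83.6 CPM, and of 31 protein-coding genes outside the HLA family within 500 kb of HLA-E 16 had a mean of at least 10 CPM. The nearest such gene to its left, RPP21, was at 0.257 to 2.15 CPM. Of 23 such genes within 500 kb of HLA-F, 3 reached 10 CPM.

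Reads that mapped to more than 1 place were discarded by the authors, which can lower counts of genes with near-identical copies. Exact copies of exon windows of the read length were searched on the main chromosomes of the reference. In HLA-E 14 of 2446 windows (0.572%) and in HLA-F 19 of 3348 (0.568%) were found more than once, against 0 of 4111 in HLA-B, 3 of 2107 in HLA-C (0.142%) and 58 of 6094 in TAPBP (0.952%). Near-identical copies and sequences outside the main chromosomes were not searched. These shares thus do not show how far discarded reads lowered the counts. None was found more than once in B2M, TAP1, TAP2 or NLRC5. How the alleles of REC-1 differ from the reference was not examined, and a read that differs from it can be lost or assigned elsewhere, so levels of the HLA genes relative to each other are uncertain. The counted pseudogenes HLA-H, HLA-J, HLA-K and HLA-L held at most 21 reads in any library. The kit did not mark strand, so reads of genes that overlap on opposite strands cannot be told apart.

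The light chain was the most abundant member. B2M (ENSG00000166710, chr15:44711358-44718851, plus strand) was at 1056, 849, 907 and 835 CPM in Sep, 1039, 1233, 947 and 992 CPM in Susp and 1124, 999, 1055 and 1047 CPM in Adh. In 3 of 4 Sep libraries the level was below every Susp and Adh library, and Sep replicate 1 lay among them.

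The loading genes lie in the MHC region of chromosome 6. TAPBP (ENSG00000231925, chr6:33299694-33314284, minus strand) was at 232, 302, 272 and 299 CPM in Sep, 277, 327, 332 and 282 CPM in Susp and 247, 288, 239 and 285 CPM in Adh. TAP1 (ENSG00000168394, chr6:32845209-32853816, minus strand) was at 22.7, 26.7, 29.0 and 25.7 CPM in Sep, 24.7, 29.4, 28.1 and 24.0 CPM in Susp and 24.9, 23.2, 15.9 and 28.7 CPM in Adh. Adh replicate 3, the library with the fewest human counts, was its lowest. TAP2 (ENSG00000204267, chr6:32821833-32838739, minus strand) was at 32.8, 32.1, 27.0 and 29.8 CPM in Sep, 28.8, 25.5, 25.8 and 26.5 CPM in Susp and 28.0, 27.7, 22.6 and 26.3 CPM in Adh. Groups overlapped for each of these genes. Per length, TAP2 was 0.542 ± 0.0963 times TAP1 in Sep, 0.463 ± 0.0658 times in Susp and 0.533 ± 0.0948 times in Adh (SD, n = 4). Lengths used were 10357 bases for TAP2 and 4738 for TAP1, also from the later annotation.

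NLRC5 (ENSG00000140853, chr16:56989485-57083531, plus strand), the transactivator, was at 15.9, 18.7, 16.6 and 18.5 CPM in Sep, 19.3, 20.04, 19.2 and 17.5 CPM in Susp and 13.0, 17.2, 13.0 and 16.6 CPM in Adh. The Adh libraries all lay below the Susp libraries, by a narrow margin between Adh replicate 2 and Susp replicate 4. Sep libraries overlapped with both other groups.

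**Figure D2:**
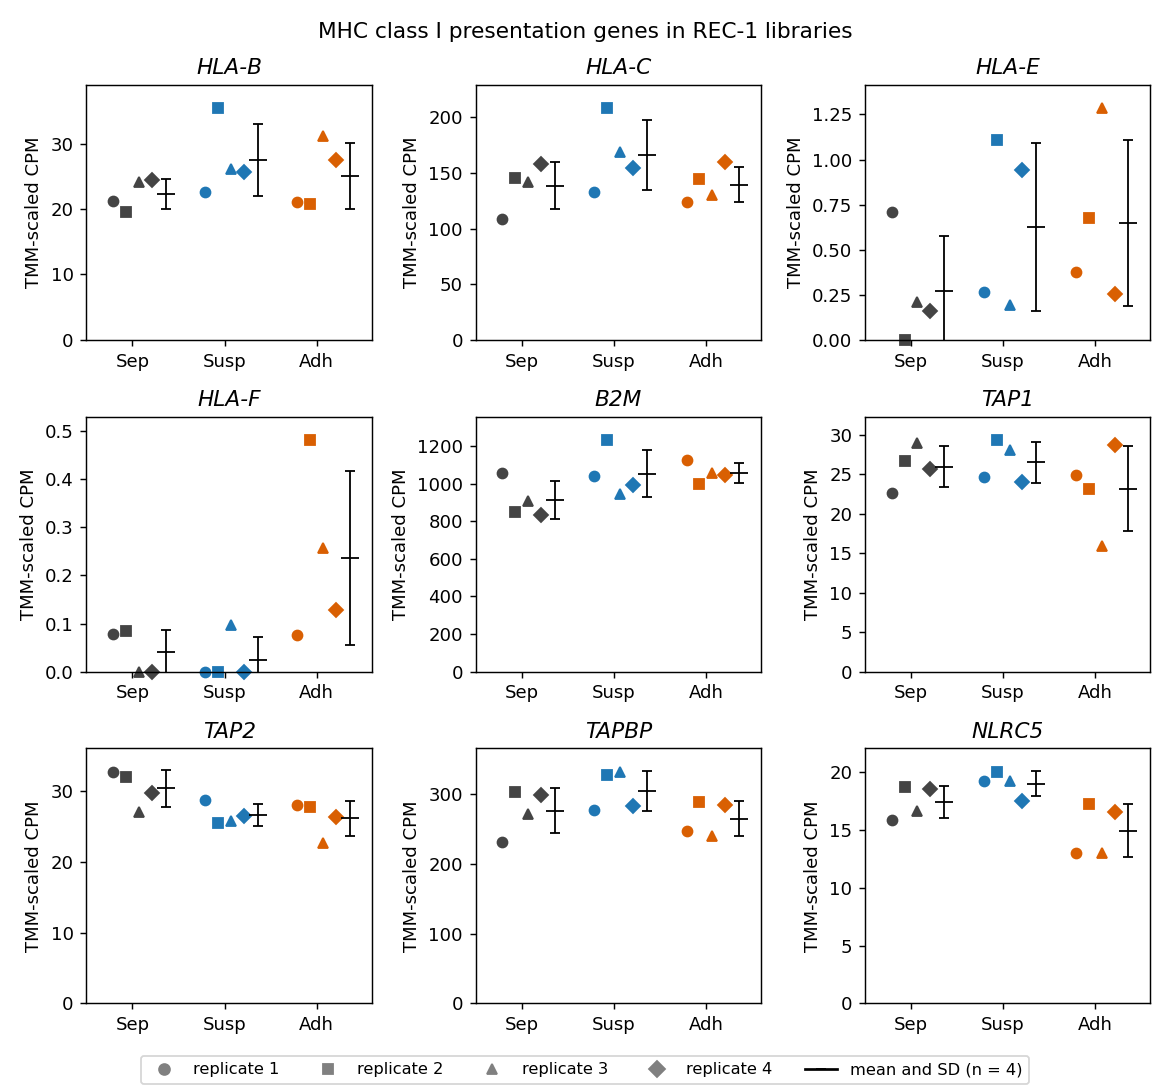
TMM-scaled CPM of the 9 members in each REC-1 library, by group, with a linear axis from 0 for each gene. Symbols are replicates, and the bar to the right of each group is the mean and SD (n = 4). The groups overlap in every panel except NLRC5, where the Adh libraries (13.0 to 17.2 CPM) lie below the Susp libraries (17.5 to 20.04 CPM).

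Coculture was addressed by Susp against Sep cells, since Susp cells shared the dish with MS-5 cells without being bound at harvest. Susp cells are also the part of a coculture left unbound, so they can differ from Sep by which cells stayed unbound. The paper kept MCL lines in RPMI medium and cocultures under the conditions of MS-5 cells, which grew in αMEM. It does not name the medium of the Sep libraries. Effects of stroma, of medium and of this selection cannot be told apart here. None of the 7 tested members passed the test in this comparison (edgeR's quasi-likelihood F-test, Benjamini-Hochberg adjusted p of at most 0.05 over 12861 genes), where 1.02% of all tested genes did. At an unadjusted p under 0.05 there was 1 member, B2M, where 16.7% of all genes were under it. DESeq2 passed 0 members and had 0 at an unadjusted p under 0.05. Shares of all genes by DESeq2 are not given for this or the other comparisons. B2M was 1.16-fold higher in Susp (log2 fold change 0.21, SE 0.094, 95% interval 0.0082 to 0.41, adjusted p = 0.285 by edgeR). HLA-B was at 0.30 (SE 0.157, interval -0.03 to 0.64, adjusted p = 0.33 by edgeR) and HLA-C at 0.26 (SE 0.136, interval -0.02 to 0.55, adjusted p = 0.327 by edgeR). Both values rest largely on Susp replicate 2. Without it the log2 fold change was 0.15 for HLA-B, 0.13 for HLA-C and 0.11 for B2M, and again 0 of 7 passed. TAPBP was at 0.14, NLRC5 at 0.12, TAP1 at 0.03 and TAP2 at -0.19, with adjusted p between 0.356 and 0.922 by edgeR. The sign for TAP1 turned without Sep replicate 1 and without Susp replicate 2. The median over the 7 was 0.14, against -0.0059 over all tested genes, and 0.10 without Susp replicate 2.

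Adhesion and coculture together were addressed by Adh against Sep cells, again with a possible difference of medium. Of the tested members 0 of 7 passed by edgeR and 0 by DESeq2, where 3.41% of all genes passed by edgeR, and 1 member (B2M, with either tool) was at an unadjusted p under 0.05, as were 20.2% of all genes by edgeR. B2M was 1.16-fold higher in Adh (log2 fold change 0.21, SE 0.0942, interval 0.01 to 0.41, adjusted p = 0.217 by edgeR). Without Susp replicate 2, which enters this comparison only through the shared estimate of the spread, its adjusted p was 0.0659. TAP2 was at -0.21 (SE 0.108, interval -0.44 to 0.01, adjusted p = 0.281) and NLRC5 at -0.23 (SE 0.13, interval -0.50 to 0.05, adjusted p = 0.35), both by edgeR. HLA-B was at 0.16, HLA-C at 0.01, TAPBP at -0.06 and TAP1 at -0.16, with adjusted p between 0.594 and 0.974 by edgeR. The sign for HLA-C turned when Sep replicate 1, Adh replicate 2 or Adh replicate 4 was left out, and with at least 10 counts required in every library. The median over the 7 was -0.06, against -0.0034 over all tested genes.

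Adhesion within the coculture was addressed by Adh against Susp cells. Again 0 of 7 members passed by edgeR and 0 by DESeq2, where 0.941% of all genes passed by edgeR, and 1 member was at an unadjusted p under 0.05 with either tool, as were 18% of all genes by edgeR. That member was NLRC5, at 0.786-fold in Adh (log2 fold change -0.35, SE 0.128, interval -0.62 to -0.08, adjusted p = 0.184 by edgeR), and at -0.31 without Susp replicate 2. It was also the member whose Adh and Susp libraries did not overlap, as for 11.4% of all tested genes. HLA-C was at -0.25 (SE 0.137, interval -0.54 to 0.04, adjusted p = 0.337 by edgeR) and at -0.11 without Susp replicate 2. TAPBP was at -0.20 (SE 0.102, interval -0.42 to 0.01, adjusted p = 0.309 by edgeR). TAP1 was at -0.19, HLA-B at -0.14, TAP2 at -0.02 and B2M at 0.0048, with adjusted p between 0.492 and 0.983 by edgeR. The direction for HLA-B, TAP2 and B2M turned when single libraries were left out, and that of B2M also with upper-quartile scaling and with no low-count filter. The median over the 7 was -0.19 and -0.11 without Susp replicate 2, against -0.0051 over all tested genes.

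A p that misses the threshold does not show that levels were alike, but the intervals bound the differences. In Adh against Sep the 95% intervals of 7 of 7 members lay within 1.5-fold either way (a log2 fold change of 0.585). In Susp against Sep this held for 6 of 7, with the interval of HLA-B reaching 1.55-fold higher in Susp. In Adh against Susp it held for 6 of 7, with the interval of NLRC5 reaching down to 0.652-fold. The intervals are per gene and rest on the spread between libraries, with no pairing by replicate number. The 3 comparisons share groups, so their values for a gene are not independent. In these bulk libraries a change in all cells and a larger change in some of them cannot be told apart.

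**Figure D3:**
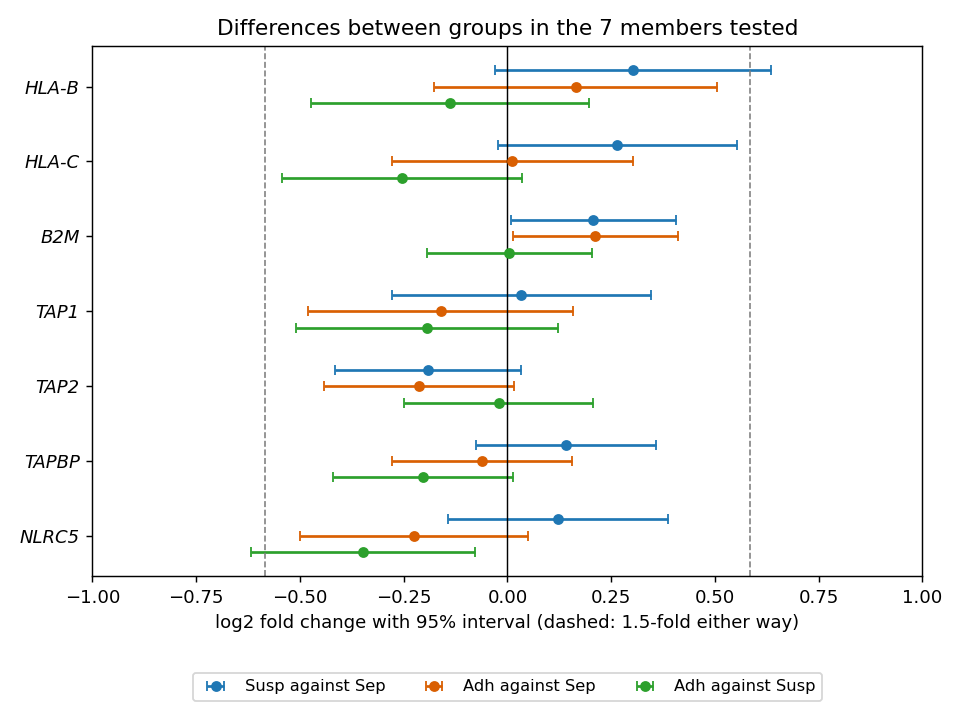
Log2 fold change of the 7 tested members in the 3 comparisons, with 95% intervals from the edgeR fit over 12 libraries. Dashed lines mark 1.5-fold either way. Point estimates lie between -0.35 (NLRC5, Adh against Susp) and 0.30 (HLA-B, Susp against Sep), and 2 of the 21 intervals cross a dashed line.

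Genes that work with the members were counted in lists. Of all tested genes 1.02%, 3.41% and 0.941% passed by edgeR in Susp against Sep, Adh against Sep and Adh against Susp. At an unadjusted p under 0.05 by edgeR the shares were 16.7%, 20.2% and 18%, and each list is to be read beside these. The proteasome cuts the peptides, and immunoproteasome subunits change which peptides are cut. Of 11 tested genes of this list, 2 passed in Adh against Sep, both higher, and 0 passed in Susp against Sep (edgeR, where 5 were at an unadjusted p under 0.05) or in Adh against Susp (0 at an unadjusted p under 0.05). The list's median log2 fold change was 0.27 in Susp against Sep and 0.22 in Adh against Sep. PSMB8, an immunoproteasome subunit whose gene lies beside TAP1, was at 24.6, 21.9, 18.2 and 20.9 CPM in Sep, 27.0, 36.5, 27.1 and 32.2 CPM in Susp and 29.2, 30.04, 30.3 and 32.1 CPM in Adh. All Sep libraries lay below the others, and the share of all tested genes for which Sep lies apart in this way is not given. PSMB8 rose 1.42-fold in Adh against Sep (log2 fold change 0.50, SE 0.125, adjusted p = 0.0362 by edgeR), and was at 0.52 in Susp against Sep (adjusted p = 0.0578 by edgeR). PSMB6, a constitutive catalytic subunit, rose 1.35-fold in Adh against Sep (log2 fold change 0.44, SE 0.115, adjusted p = 0.0468 by edgeR). Both calls depended on single libraries and on the processing. That of PSMB8 was lost (adjusted p from 0.0526 to 0.117) without any one of Sep replicates 2, 3 and 4, Susp replicate 4 and the 4 Adh replicates, and that of PSMB6 (0.0513 to 0.138) without any one library other than Susp replicate 2. With counts thinned to the smallest library the adjusted p was 0.0931 for PSMB8 and 0.052 for PSMB6, and that of PSMB6 was 0.0582 with upper-quartile scaling and 0.0555 with the newer quasi-likelihood form of edgeR. Without Susp replicate 2, 5 of 11 passed in Adh against Sep, all higher (PSMB5, PSMB6, PSMB7, PSMB8 and PSME2), where 11.9% of all genes did.

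Trimming and loading in the ER showed no gene that passed. Of 8 tested genes 0 passed by edgeR in any of the 3 comparisons, with 2, 1 and 1 at an unadjusted p under 0.05 in Susp against Sep, Adh against Sep and Adh against Susp. List medians were 0.02, -0.0077 and -0.07. The chaperone CANX was at a mean of 1034 ± 56.8 CPM in Sep, 1020 ± 158 in Susp and 1156 ± 50.2 in Adh (SD, n = 4), and CALR, which joins tapasin in the loading complex, at 850 ± 37.5, 970 ± 123 and 863 ± 41.1 CPM. Both were thus at levels in CPM like that of B2M. Among molecules with a class I fold, 4 of 12 passed the low-count filter and 0 of these passed the test by edgeR in any comparison, with 0 at an unadjusted p under 0.05. CD1D, which presents lipids to NKT cells, was at a mean of 72.0 ± 5.28 CPM in Sep, 67.4 ± 10.4 in Susp and 64.8 ± 2.55 in Adh, and CD1C at 56.0 ± 11.01, 60.2 ± 8.21 and 67.2 ± 10.3 CPM.

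Of 15 genes that control class I transcription, all tested, 1 passed in Susp against Sep and in Adh against Sep and 0 in Adh against Susp (edgeR, with 2 at an unadjusted p under 0.05). It was CIITA, the relative of NLRC5 that drives MHC class II genes. CIITA was at 42.5, 64.2, 39.0 and 55.4 CPM in Sep, 30.6, 24.9, 30.7 and 28.0 CPM in Susp and 25.03, 29.4, 28.3 and 24.1 CPM in Adh. All 4 Sep libraries lay above all 8 coculture libraries. The share of all tested genes whose Sep libraries lie apart in this way is not given. CIITA fell to 0.567-fold in Susp (log2 fold change -0.82, SE 0.143, adjusted p = 0.00749) and to 0.53-fold in Adh (-0.91, SE 0.146, adjusted p = 0.00177), both against Sep by edgeR. These calls held with each of the 12 libraries left out in turn. NLRC5, with the same kind of role for class I, was at 0.12 and -0.23 in these comparisons and did not pass. Whether the changes of CIITA and NLRC5 differ was not tested. The log2 fold changes of the other 14 genes of the list lay between -0.35 (CREB1) and 0.46 (RFXANK, a subunit of the RFX factor), both in Susp against Sep, and none of them passed by edgeR. Without Susp replicate 2, RFXANK (higher) and NFKB1 (lower) also passed in Adh against Sep, where 11.9% of all genes then passed.

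Interferon signalling was represented by 12 tested genes of 15. None passed in Susp against Sep (edgeR, 0 at an unadjusted p under 0.05) or in Adh against Susp (4 at an unadjusted p under 0.05), and 2 passed in Adh against Sep, both lower. STAT2 and IRF9 are partners in the factor that carries the type I interferon signal to the nucleus. STAT2 fell to 0.774-fold in Adh against Sep (log2 fold change -0.37, SE 0.0963, adjusted p = 0.0439 by edgeR), from 90.4 ± 3.66 to 69.9 ± 7.60 CPM (SD, n = 4). IRF9 fell to 0.282-fold (-1.83, SE 0.419, adjusted p = 0.0249 by edgeR) at a low level, from 2.13, 5.44, 4.39 and 3.59 CPM in Sep to 1.95, 1.06, 0.642 and 0.385 CPM in Adh. The call of STAT2 was lost (adjusted p from 0.0556 to 0.129) without any one of 9 libraries, all but Sep replicate 1, Susp replicate 2 and Adh replicate 2, and that of IRF9 (0.053 to 0.103) without any one of Sep replicates 2, 3 and 4 and Adh replicates 2, 3 and 4. The interferon genes IFNG and IFNB1 had at most 2 reads and 0 reads in any library. Without Susp replicate 2, TYK2 also passed in Adh against Sep, lower, where 11.9% of all genes then passed.

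Over the 12 libraries, more interferon-stimulated genes passed than genes of any other list, and this list also had the most tested genes. Of all tested genes 1.02% passed in Susp against Sep and 3.41% in Adh against Sep by edgeR. Of 16 tested of 25, 4 rose in Susp against Sep and 4 in Adh against Sep, none fell, and 0 passed in Adh against Susp (edgeR, with 2 at an unadjusted p under 0.05). List medians were 0.20, 0.18 and -0.03. CXCL9, a chemokine that draws activated T cells, was at 8.98, 10.9, 9.83 and 8.93 CPM in Sep, 20.4, 18.8, 20.5 and 23.5 CPM in Susp and 20.9, 16.8, 20.6 and 14.9 CPM in Adh. It rose 2.16-fold in Susp (log2 fold change 1.11, SE 0.139, adjusted p = 0.00056) and 1.90-fold in Adh (0.92, SE 0.142, adjusted p = 0.00128), both against Sep by edgeR. CXCL10, its relative on the same receptor, was at 16.5, 14.6, 11.5 and 10.4 CPM in Sep, 30.9, 31.3, 23.8 and 24.5 CPM in Susp and 26.6, 27.0, 22.6 and 31.8 CPM in Adh. It rose 2.08-fold in Susp (1.05, SE 0.159, adjusted p = 0.00237) and 2.03-fold in Adh (1.02, SE 0.162, adjusted p = 0.00161), both by edgeR. For both chemokines the Sep libraries lay below all others, and the calls held with each of the 12 libraries left out in turn. How many of all tested genes had Sep libraries apart from all others is not given.

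The other genes of this list that passed did so less firmly. IFITM1, a membrane protein that blocks virus entry, rose 2.04-fold in Susp (adjusted p = 0.0298 by edgeR) and 2.00-fold in Adh (0.024 by edgeR) from 2.55 ± 0.656 CPM in Sep (SD, n = 4). Its adjusted p in Susp against Sep was 0.11, 0.107, 0.0697, 0.0836 and 0.0643 without Sep replicate 2, Sep replicate 3 and Susp replicates 2, 3 and 4, and in Adh against Sep it was 0.0849, 0.0681, 0.0556 and 0.0697 without Sep replicates 2 and 3 and Adh replicates 1 and 4. BST2, which tethers budding virus, rose 1.61-fold in Susp (log2 fold change 0.68, adjusted p = 0.0294 by edgeR) and was at 1.14-fold in Adh (adjusted p = 0.507 by edgeR). Its adjusted p in Susp was 0.0902, 0.108 and 0.0674 without Sep replicates 1, 3 and 4. With Susp and Sep libraries fitted alone, the adjusted p by edgeR was 0.0634 for BST2 and 0.0707 for IFITM1. MX2, another antiviral gene, rose 1.56-fold in Adh (0.65, adjusted p = 0.0101 by edgeR), with an adjusted p of 0.0523 without Sep replicate 2. ISG15 and MX1, core genes of the type I response, were at 0.24 and 0.12 in Susp against Sep and 0.53 and 0.17 in Adh against Sep and did not pass. GBP1, GBP4 and GBP5, usual targets of interferon gamma, had at most 4 reads in any library and were not tested.

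DESeq2 gave further passes in these lists. Over all genes it called 172, 527 and 282 in Susp against Sep, Adh against Sep and Adh against Susp. By edgeR 94, 309 and 100 were called, that is, passed at a fold change of at least 1.5. The share of all tested genes that passed by DESeq2 is not given. Its further passes are thus not shown to be particular to the lists. PSMB6 and PSMB8 passed higher in Susp against Sep as well as in Adh against Sep, RFXANK passed higher in Susp against Sep, NFKB1 and TYK2 passed lower in Adh against Sep, and BST2 passed lower in Adh against Susp. It passed 0 genes of the ER loading, class I fold and turnover lists in any comparison, and 0 genes of interferon signalling in Susp against Sep or in Adh against Susp. In Susp against Sep it gave no adjusted p for 1 gene of interferon signalling and for 3 interferon-stimulated genes.

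**Figure D4:**
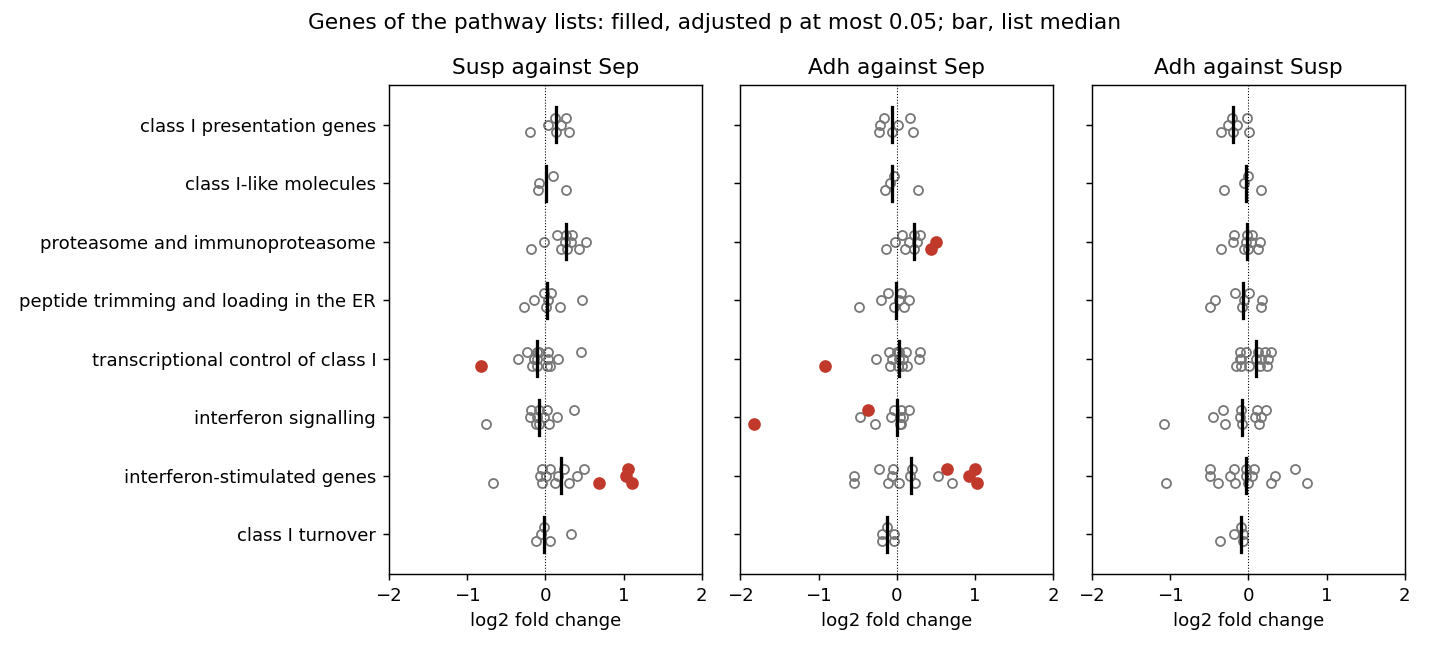
Log2 fold change of each tested gene of the class I presentation genes and of 7 lists around them, in the 3 comparisons. Filled points passed the test at an adjusted p of at most 0.05 over all 12861 genes, and bars are list medians. The class I presentation genes hold 0 filled points, while the list of interferon-stimulated genes holds 4 in Susp against Sep, 4 in Adh against Sep and 0 in Adh against Susp.

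Turnover of class I molecules at the ER and the surface was represented by 5 tested genes of 6. None passed by edgeR, with 1 at an unadjusted p under 0.05 in each comparison. The ubiquitin ligase SYVN1, which acts on misfolded heavy chains, was at a mean of 267 ± 31.8 CPM in Sep, 265 ± 12.5 in Susp and 233 ± 16.0 in Adh (SD, n = 4), and WWP2, also a ubiquitin ligase, was at 118 ± 7.38, 122 ± 10.6 and 114 ± 15.3 CPM.

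Since Adh libraries also held mouse RNA, the mouse genes of the same pathway were counted beside the human ones. Human reads were 18.3% to 28.2% of all counts in the Adh libraries. Of the reads counted on B2M and mouse B2m, 56.0% to 68.2% were human, against 24.9% to 36.4% for TAPBP, 11.96% to 27.58% for TAP1, 3.36% to 7.91% for TAP2 and 32.1% to 59.7% for NLRC5. The mouse class I heavy chains H2-K1 and H2-D1 had 1795 to 2063 and 2603 to 2893 reads in these libraries, in which HLA-E had 2 to 10. TAP2, the member with the largest mouse share, was at 26.6 ± 1.51 CPM in Susp libraries and 26.2 ± 2.49 CPM in Adh libraries (SD, n = 4). Mouse Cxcl10 had at most 1 read and Cxcl9 had 0 in the Adh libraries.

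The genes whose pattern over the 12 libraries was most like the mean log2 CPM of the 7 tested members, among 8486 other genes with a mean of at least 10 CPM, were CNPY3 and PFKP (Pearson r = 0.967 each), SEPT1 (0.961), METTL26 (0.951) and FIS1 (0.951). The mean itself ranged from 6.03 in Adh replicate 3 to 6.48 in Susp replicate 2, and these libraries set much of its range. The libraries share groups and these genes were picked as the highest of many, so the values are a description.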

How the data were processed

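RNA-seq gene counts of 12 REC-1 libraries (Sep, Susp and Adh, 4 each) were used, with mouse counts of the 4 Adh libraries and of 4 libraries of MS-5 cells alone. The authors divided read pairs by species with Xenome, aligned them with STAR 2.5.1b to GRCh38 or GRCm38 (Ensembl release 87), kept pairs that mapped to 1 place and counted fragments per gene with featureCounts (Subread 1.5.2). The deposited tables held raw whole-number counts, with no scaling or filter, of 58051 human genes and 49671 mouse genes. The other 20 columns of the tables were not used. The versions are those of the submitters' processing notes.

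Counts were scaled by TMM in edgeR 4.0.16 (R 4.3.3), and filterByExpr kept 12861 genes. All 12 libraries entered 1 quasi-likelihood fit (glmQLFit in its earlier form), from which the 3 comparisons were taken as contrasts. A gene passed at a Benjamini-Hochberg adjusted p of at most 0.05 and was called at a fold change of at least 1.5 besides. The log2 CPM used a prior count of 2. Intervals are at 95%. Lengths and positions came from GENCODE release 44, in which 12773 of the 12861 tested genes were found by identifier. Sequences came from the hg38 genome. At depths of 7758979 to 21467832 human counts, counting error limits genes at a few CPM or less.

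In simulated counts for Adh against Susp over 12861 genes, 97 of 100 genes changed 2-fold and 61 of 100 changed 1.5-fold passed, with 10 false passes. The alternatives added the replicate number to the model or used DESeq2 1.42.0, upper-quartile scaling, other low-count filters, the newer quasi-likelihood form, models of the compared groups alone, thinned counts, removal of mitochondrial genes, no fold-change minimum, the longest transcript as length and each library left out.

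The members and lists were chosen with earlier results of these data known. All 9 members are described. Of each list, the genes that passed in any comparison are named, at most 6, or the 2 of highest mean CPM where none passed, and beside them genes named for their role, chosen after their values were seen. The 5 genes most like the members were ranked by Pearson r. The stretches of sequence depart from the rule set at the start, which took promoters of members that moved together.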

Additional observations from a re-analysis of the deposited data

Results flagged for a closer look

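In groups of 4 libraries, a highest or lowest value far from the other 3 was looked for in 75 groups (the members and the named genes in Sep, Susp and Adh), by Dixon's test at the 95% level. It was met in 4 groups, and chance gives about 1 in 20. Among the members it was met by HLA-F in Susp, where Susp replicate 3 was at 0.0967 CPM and the other 3 at 0, which is a matter of 2 reads. CANX in Susp replicate 2 was at 784 CPM, against 1090 to 1110 CPM in the other Susp libraries. BST2 in the same library was at 69.8 CPM, against 46.1 to 47.5 CPM. PSMB6 in Sep replicate 4 was at 46.3 CPM, against 41.3 to 41.8 CPM. For HLA-B, HLA-C, B2M, TAP1 and NLRC5, Susp replicate 2 was the highest Susp library without meeting this limit, and for TAP2 it was the lowest.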

How the results depend on the processing

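No member passed in any comparison under any alternative. Of 441 values of the 7 members over 21 alternatives, 426 kept their direction, and 15 turned, each from a log2 fold change of at most 0.139 in size. The lowest adjusted p among them was 0.0659, for B2M in Adh against Sep without Susp replicate 2. With at least 10 counts in every library HLA-C in Adh against Sep was at -0.0018, and B2M in Adh against Susp was at -0.0077 with upper-quartile scaling and -0.0085 with no low-count filter. With 1 library left out, HLA-B in Adh against Susp ranged from -0.26 to 0.019, HLA-C in Adh against Sep from -0.085 to 0.078, B2M in Adh against Susp from -0.047 to 0.10, TAP1 in Susp against Sep from -0.027 to 0.092 and TAP2 in Adh against Susp from -0.058 to 0.038. The cause was not tested.

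Counts over all genes moved more. Genes called were 94 in Susp against Sep, 309 in Adh against Sep and 100 in Adh against Susp, and became 172, 527 and 282 with DESeq2 and 217, 503 and 341 with no low-count filter. With 1 library left out they ranged from 64 to 135, 143 to 519 and 51 to 165. The lowest of these were without Sep replicate 2, Sep replicate 2 and Adh replicate 1, and the highest without Susp replicate 1, Susp replicate 2 and Sep replicate 1.

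The replicate number was checked as a pairing. Deviations of same-numbered libraries from their group means correlated above 0.1 for 1 of 4 numbers in Susp against Sep, 3 of 4 in Adh against Sep and 1 of 4 in Adh against Susp, so not every number showed it. The titles place same-numbered libraries in 1 set, and whether a set is 1 experiment is not stated in the sources used here. The paper describes Susp and Adh cells as fractions of the cocultures and gives 4 independent experiments. Same-numbered Adh and Susp libraries may thus be paired, and the main fit leaves such a pairing out. With the replicate number as a block, 175, 384 and 281 genes were called and 0 members passed, with 2, 2 and 3 members at an unadjusted p under 0.05 against 1, 1 and 1 without it. Over all genes the calls rose as well, from 94, 309 and 100 without the block. The share of all genes at an unadjusted p under 0.05 with the block is not given. The lowest adjusted p of a member with the block was 0.0876 by edgeR, for NLRC5 in Adh against Susp. Between same-numbered libraries B2M was higher and TAP2 and NLRC5 lower in Adh than in Sep in 4 of 4 pairs. The same held for HLA-B (higher) and TAP2 (lower) in Susp against Sep, and for NLRC5 (lower) in Adh against Susp. The share of all tested genes with 4 of 4 pairs in 1 direction is not given, so this is not shown to be particular to the members. Per length, the longest transcript gave levels of B2M of 391.5, 452 and 454 RPKM in Sep, Susp and Adh, against 292, 337 and 338 RPKM over the union of exons. Depth limits what can be said of HLA-E and HLA-F.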

Other observations

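The mouse counterparts in MS-5 cells are given in counts per 1000000 mouse counts for MS-5 cells alone and with REC-1 cells bound to them, with no test made. B2m was at 161 to 189 in MS-5 cells alone and 176 to 207 in the Adh libraries, Tapbp at 155.5 to 163.4 and 162.4 to 187.5, Tap2 at 117 to 134 and 129 to 167, and Tap1 at 22.1 to 28.6 and 25.8 to 32.9. H2-D1 was at 69.0 to 89.7 and 83.6 to 90.4, H2-K1 at 50.9 to 63.97 and 57.9 to 65.99, and Nlrc5 at 3.27 to 6.84 and 4.10 to 6.41. The ranges overlapped for each of these genes, for Tapbp by a narrow margin.

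Some members kept the same extreme replicate number in each of the 3 REC-1 groups. HLA-C was lowest and TAP2 highest in replicate 1 of Sep, Susp and Adh, and NLRC5 was highest in replicate 2 of each. The share of all tested genes that do so is not given, so this is not shown to be particular to the members. The labels do not say what the replicate number marks.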
